A study of Mus musculus with 18 samples.

Results

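Primary mouse cultures labelled as Leydig cells and carrying a control siRNA were compared with and without a short exposure to hydrogen peroxide (H2O2), using poly(A) RNA sequencing. The comparison took 6 of the 18 libraries of the study by their labels. The siNC+H2O2 cultures (3 libraries) were transfected with the control siRNA siNC, given 200 µM H2O2 for 30 min and then kept for 6 h in 0.1% DMSO, the vehicle of a statin used elsewhere in the study. The siNC cultures (3 libraries) had the same transfection and the same 6 h of 0.1% DMSO with no H2O2. The other 12 libraries had an siRNA against Prdx1 (siprdx1) in place of siNC, fluvastatin after H2O2, or both. Of these, the siprdx1+H2O2 and siprdx1 groups (3 libraries each) had the same 2 treatments as the siNC pair and are used below as a second setting for the same H2O2 exposure. The labels give no strain or age of the mice.

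Leydig cells lie between the tubules of the testis and turn cholesterol into testosterone. H2O2 oxidises reactive cysteines in proteins and is broken down by peroxiredoxins, glutathione peroxidases and catalase. A peroxide pulse is known to act on MAP kinases, which switch on immediate early genes such as FOS and EGR1, on the KEAP1 and NRF2 pair, which drives antioxidant genes, and on eIF2α kinases, whose effector is the transcription factor ATF4. The first of these responses is known as fast and brief, whereas RNA here was taken 6 h after the pulse.

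The siNC+H2O2 libraries held 17683846, 18557448 and 22933161 counts and the siNC libraries 21568170, 22187255 and 23153078. Levels below are CPM, read counts relative to the TMM-scaled library total, and effects are log2 fold changes of siNC+H2O2 over siNC with their standard error (SE). Rose and fell are used of genes that passed edgeR's quasi-likelihood test at a Benjamini-Hochberg adjusted p below 0.05 over all 16432 genes tested. The replicates are numbered as biological ones, with no word on separate animals. The p-values thus measure only the spread between libraries within groups, pooled over all 18 libraries of the study. Part of this spread may be technical. Within a group, chi-square statistics of the counts came to 3.73 to 10.7 per degree of freedom, highest between siNC replicates 1 and 2, so no library looked like another deposited again. On the first principal component of the 6 libraries (36% of variance) the groups lay apart, with siNC replicate 2 farthest from the siNC+H2O2 libraries.

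The cultures carried only part of the labelled cell type's signature. Cyp11a1, the enzyme that starts steroid synthesis, had 778, 741 and 748 CPM in siNC+H2O2 libraries, against 776, 734 and 718 CPM in siNC libraries, and Star, which carries cholesterol into mitochondria, had 193, 212 and 189.7 CPM in siNC+H2O2 libraries, against 194, 203 and 188 CPM in siNC libraries. Cyp17a1, which opens the path to androgens, had at most 0.106 CPM in siNC+H2O2 libraries and 0.0912 CPM in siNC libraries, and Hsd17b3, which makes testosterone, at most 0.112 CPM in siNC+H2O2 libraries and 0.0456 CPM in siNC libraries. None of the 10 tested members of the Leydig marker list rose or fell in edgeR or DESeq2, with 2 higher at an unadjusted edgeR p below 0.05. With GC and length offsets 1 was higher, and with the block on the 6 libraries 2 were. The list includes Star at 0.02 ± 0.05, whose sign turned to -0.03 without replicate 2 of siNC+H2O2 and to -0.0056 without replicate 3 of siNC. The 10 tested Leydig markers and 2 others of their list summed to 1933 to 2010 CPM in siNC+H2O2 libraries and 1866 to 1952 CPM in siNC libraries. Markers of fibroblasts and stroma were far higher on this scale, which is not per length, at 19380 to 20100 CPM in siNC+H2O2 libraries and 18260 to 19350 CPM in siNC libraries. Extracellular matrix genes summed to 44550 to 45910 CPM in siNC+H2O2 libraries and 42900 to 44660 CPM in siNC libraries, which goes against cultures made up of the labelled cell type alone. Macrophage genes were abundant too. Lyz2, which encodes lysozyme, had 6870, 6280 and 6364 CPM in siNC+H2O2 libraries, against 6113, 5313 and 5460 CPM in siNC libraries, and the 17 macrophage markers together summed to 10300 to 10930 CPM in siNC+H2O2 libraries and 9032 to 9884 CPM in siNC libraries. In bulk RNA a larger share of macrophages and more macrophage RNA per cell cannot be told apart.

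In siNC cultures 6 h after the peroxide pulse, rises were found in 15 of 20 early response genes, 6 of 11 AP-1 factors, 7 of 10 mRNA decay regulators, 9 of 23 integrated stress response genes, 9 of 22 chemokines and 6 of 22 heat shock genes. Falls were found in 11 of 26 nuclear long noncoding RNAs, 6 of 25 imprinted genes and 11 of 35 splicing genes. The lists of long noncoding RNAs and imprinted genes overlap, and Kcnq1ot1 counts in both. Members and lists were chosen with earlier results of these data known, so high shares in them may be set in part by that choice. Over all 16432 genes tested, 387 rose (2.36%) and 755 fell (4.59%), together 6.95%. Of these, 47 rose (0.286%) and 116 fell (0.706%) by at least 1 on the log2 scale. With the replicate number as a block in a fit of these 6 libraries alone, 1560 of 15540 genes tested were higher and 1758 lower. With offsets for GC content and transcript length the split turned to 1060 higher and 766 lower, and 334 of the 387 and 583 of the 755 passed there in the same direction. The counts changed when 1 library was left out. Without siNC+H2O2 replicates 1, 2 and 3 in turn, 208, 270 and 216 genes were higher and 448, 567 and 437 lower. Without siNC replicates 1, 2 and 3 in turn, 423, 194 and 233 were higher and 732, 452 and 485 lower. A smaller group also weakens the test, and its part in these changes was not tested. Of the 217 genes that passed and were eligible to be named, 102 passed in every alternative fit that gave a result for them. This leaves out the fit that asks for at least a 2-fold change. The genes called risen or fallen by name below are among these 102 unless an exception is given. Near-identical stretches in other annotated genes make part of the reads of Btg1, Zfp36l1, Cxcl2, Sat1, Srrm2, Lyz2, Malat1, Meg3, Kcnq1ot1 and mt-Nd5 uncertain. Whether the matching genes lie elsewhere in the genome or overlap at the same place was not checked.

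**Figure D1:**
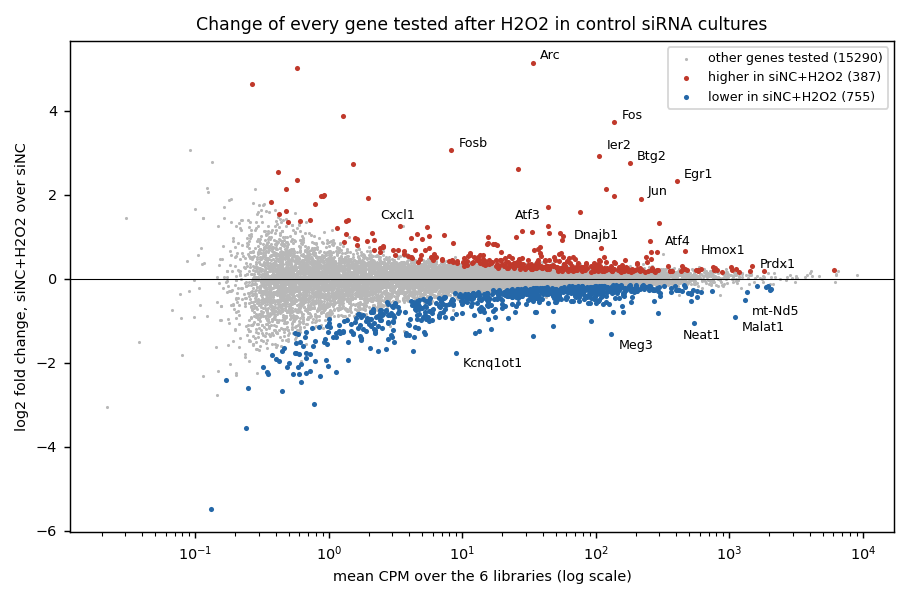
Each point is 1 of the 16432 genes tested, by its mean CPM over the 6 libraries (x axis, log scale) and its log2 fold change of siNC+H2O2 over siNC (y axis); red genes rose (387), blue genes fell (755) and grey genes did not pass. Arc, at 5.13, and Fos, at 3.72, stand above genes of similar level, and Meg3, Neat1 and Malat1 are abundant genes that fell.

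Immediate early genes stood among the largest rises, beside the histone gene H4f16 given below. Fos (ENSMUSG00000021250, GRCm38 chromosome 12, 85473890 to 85477273, plus strand), the core subunit of the AP-1 transcription factor, had 261, 246 and 259.7 CPM in siNC+H2O2 libraries, against 19.1, 21 and 18.2 CPM in siNC libraries. The groups did not overlap, and the fitted difference was 13.2-fold (3.72 ± 0.07, edgeR adjusted p = 3.19e-20). Groups without overlap were common in this comparison, at 12.5% of genes tested for higher and 14.4% for lower. They were also required of the genes named for the largest rises and falls, so for those genes the lack of overlap is no result. Its paralog Fosb had 13.7, 14.8 and 15.8 CPM in siNC+H2O2 libraries, against 1.73, 2.05 and 1.56 CPM in siNC libraries (3.05 ± 0.12, edgeR adjusted p = 8.92e-15). Jun, the partner of FOS in AP-1, had 344, 338 and 347 CPM in siNC+H2O2 libraries, against 93.9, 92.2 and 89.99 CPM in siNC libraries (1.90 ± 0.07, edgeR adjusted p = 5.86e-15), and Junb rose by 2.14 ± 0.09. Atf3, a stress-induced repressor of the same family, had 64.6, 55.4 and 64.9 CPM in siNC+H2O2 libraries, against 26.9, 23.9 and 26.6 CPM in siNC libraries. The siNC+H2O2 values were more than double the siNC values in each of these genes. In all, 6 of 11 AP-1 factors rose and 0 fell, with a median log2 fold change of 0.461 against 0.0085 over all genes tested. Not all members moved, since Fosl1 (0.42, edgeR adjusted p = 0.0517) and Fosl2 (-0.02, edgeR adjusted p = 0.783) did not pass. Jund (0.39) passed in all but the fit without replicate 2 of both groups, where it gave 0.38 with an edgeR adjusted p of 0.0722, and 52.6% of its exon length is overlapped on the other strand.

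Arc (ENSMUSG00000022602, GRCm38 chromosome 15, 74669083 to 74672570, minus strand), best known as a neuronal gene of synaptic plasticity, had the largest fitted rise of all genes tested. Its level was 65.4, 61.7 and 69.4 CPM in siNC+H2O2 libraries, against 1.28, 2.49 and 1.81 CPM in siNC libraries, a 35-fold difference (5.13 ± 0.12, edgeR adjusted p = 1.04e-18). Egr1, a zinc finger transcription factor of growth factor and stress signals, had 686, 654 and 685 CPM in siNC+H2O2 libraries, against 140.4, 128 and 138 CPM in siNC libraries (2.32 ± 0.06, edgeR adjusted p = 5.62e-18). Per length, its mean level in siNC+H2O2 cultures was 150.5 RPKM, above Fos at 109 and Jun at 108 RPKM. Of 7 EGR and NR4A factors 3 rose (4 with GC and length offsets) and 0 fell. The other risen members were Egr2 (0.53 ± 0.07) and Nr4a1 (1.11 ± 0.08), an orphan nuclear receptor that in Leydig cells also acts on steroidogenic promoters. Egr3 (-0.18), Nr4a2 (0.37) and Nr4a3 (-0.01) did not pass and lay below 3 CPM in all 6 libraries. Egr4 was near the detection floor, with 0.0562, 0.317 and 0.129 CPM in siNC+H2O2 libraries and 0, 0.0437 and 0 CPM in siNC libraries, and did not pass (edgeR adjusted p = 0.0657). Among other early response genes 15 of 20 rose and 0 fell, with a median of 0.429. Ier2, an immediate early nuclear protein, had 179, 182 and 199 CPM in siNC+H2O2 libraries, against 22.8, 23.7 and 28.2 CPM in siNC libraries, and Rgs1, which damps G protein signals, had 46, 49.1 and 39.8 CPM in siNC+H2O2 libraries, against 7.66, 8.34 and 6.24 CPM in siNC libraries. Both groups of values lay far apart, at 7.49-fold and 6.06-fold. Plk2, a stress-induced polo-like kinase, rose by 1.71 ± 0.06, Ier5 by 1.09 ± 0.06, Ier3 by 0.73 ± 0.07, Csrnp1 by 0.61 ± 0.08 and Myc by 0.48 ± 0.07. Others that rose were Rgs2 (0.62 ± 0.06), Gadd45b (0.42 ± 0.07), a stress sensor of the p38 and JNK pathways, and the kinase Sgk1 (0.26 ± 0.05). Kruppel-like factors joined with 5 of 11 risen, led by Klf2 (1.10 ± 0.09), Klf6 (0.51 ± 0.07), Klf4 (0.50 ± 0.06) and Klf10 (0.44 ± 0.06).

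Several genes that switch such signals off again rose beside them. Btg2, an antiproliferative gene that recruits the deadenylase complex, had 314, 317 and 309 CPM in siNC+H2O2 libraries, against 46.5, 46.8 and 47.4 CPM in siNC libraries, a 6.68-fold difference with a spread of 3.89 CPM in siNC+H2O2 and 0.441 CPM in siNC cultures (SD, n = 3 each, edgeR adjusted p = 9.95e-22). Zfp36, which encodes tristetraprolin and sends AU-rich mRNAs to decay, had 222, 205 and 224 CPM in siNC+H2O2 libraries, against 58, 53.5 and 54.1 CPM in siNC libraries (1.97 ± 0.06). In the list of mRNA decay and antiproliferative regulators 7 of 10 rose and 0 fell, among them Tob1 (0.53 ± 0.08), Btg1 (0.51 ± 0.07) and Zfp36l1 (0.29 ± 0.05), of which Zfp36l1 shares 55.9% of its exon length with a gene on the other strand. Dusp1, the nuclear phosphatase of p38 and JNK, had 422, 403 and 443 CPM in siNC+H2O2 libraries, against 172, 159 and 176 CPM in siNC libraries (1.32 ± 0.06). It was 1 of 3 risen among 10 MAP kinase phosphatases. The second, Dusp2, was close to the detection floor, with 0.843, 0.37 and 0.345 CPM in siNC+H2O2 libraries and 0.0456, 0 and 0 CPM in siNC libraries. It gave a result in only 15 of the 17 alternative fits. Spry4, a feedback inhibitor of receptor tyrosine kinases, rose by 0.83 ± 0.09, and Hbegf, a ligand of the EGF receptor, by 1.01 ± 0.11. In their list of EGF-family ligands and feedback inhibitors 3 of 10 rose and 1 fell, with a median of 0.002. The fallen one was Errfi1, a feedback inhibitor of the EGF receptor (-0.20 ± 0.05, edgeR adjusted p = 0.00955, and 0.0987 without replicate 2 of both groups). The p53 list held 4 risen genes of 28, namely Btg2, Plk2, Gdf15 (1.00 ± 0.13), a stress cytokine, and Cdkn1a (0.29 ± 0.06), the inhibitor of cyclin-dependent kinases. Both Btg2 and Plk2 are also early response genes, and Mdm2, the feedback inhibitor of p53, gave 0.11 ± 0.06 (edgeR adjusted p = 0.314).

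**Figure D2:**
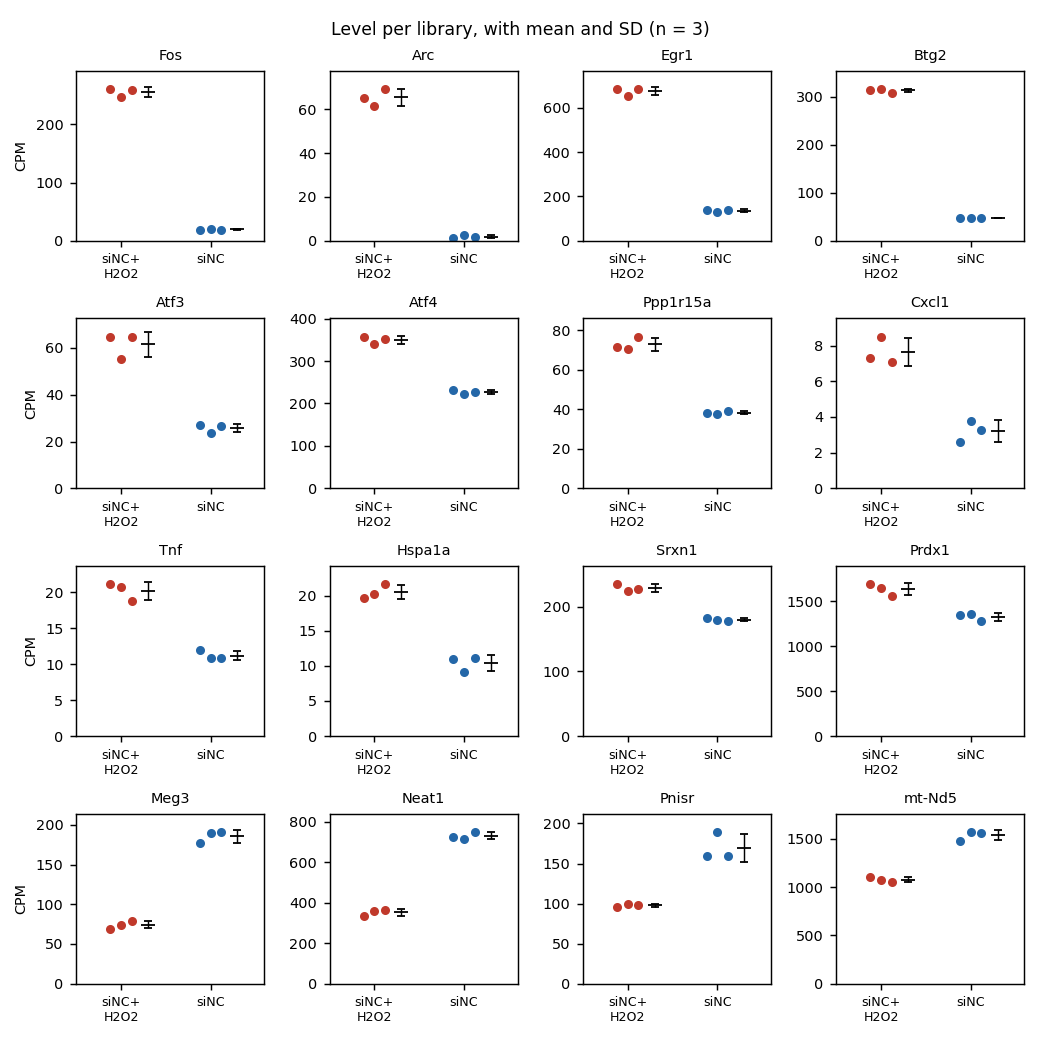
Each panel shows 1 gene, with its CPM in the 3 siNC+H2O2 libraries (red, left) and the 3 siNC libraries (blue, right) from 0 upward, and the mean with its SD in black. No panel has overlapping groups, and the distance runs from over 10-fold in Fos and Arc to about 1.2-fold in Prdx1 (1.23-fold) and Srxn1 (1.27-fold).

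The promoters of genes from the main responding groups are shown because these genes moved together. The 120 bases before the RefSeq start are given 5′ to 3′ on the gene's strand for an AP-1 member each of high and low level, a stress-induced repressor, a phosphatase subunit of the stress response, a chemokine and an antioxidant enzyme, and capitals mark motif matches. They lie in GRCm38.p6 (RefSeq) at chr12:85473770-85473889 (plus strand) for Fos, chr7:19310046-19310165 (minus strand) for Fosb, chr1:191183334-191183453 (minus strand) for Atf3, chr7:45526269-45526388 (minus strand) for Ppp1r15a, chr5:90891125-90891244 (plus strand) for Cxcl1 and chr2:152105404-152105523 (plus strand) for Srxn1.
Fos: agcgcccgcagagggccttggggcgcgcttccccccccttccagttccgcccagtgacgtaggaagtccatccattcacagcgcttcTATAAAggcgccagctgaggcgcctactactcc
Fosb: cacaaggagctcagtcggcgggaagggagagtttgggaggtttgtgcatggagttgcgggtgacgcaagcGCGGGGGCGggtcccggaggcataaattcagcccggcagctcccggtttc
Atf3: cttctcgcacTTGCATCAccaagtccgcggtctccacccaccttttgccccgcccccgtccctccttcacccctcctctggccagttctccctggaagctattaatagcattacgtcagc
Ppp1r15a: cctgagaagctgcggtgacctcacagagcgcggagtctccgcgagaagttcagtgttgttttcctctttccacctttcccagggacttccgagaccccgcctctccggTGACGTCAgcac
Cxcl1: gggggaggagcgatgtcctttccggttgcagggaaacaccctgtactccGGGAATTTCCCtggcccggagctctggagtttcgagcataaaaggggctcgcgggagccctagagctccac
Srxn1: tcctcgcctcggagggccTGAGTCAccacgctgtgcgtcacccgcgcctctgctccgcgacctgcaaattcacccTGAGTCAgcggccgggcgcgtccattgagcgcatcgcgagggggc
Fos held the TATA box TATAAA. Fosb held the EGR motif GCGNGGGCG, Atf3 the ATF4 and CEBP composite TGATGNAA on the other strand, and Ppp1r15a a full cyclic AMP element TGACGTCA next to the start. Cxcl1 held an NF-kappaB site that matches on both strands, and Srxn1 held 2 copies of the AP-1 motif TGANTCA.

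The same motifs were counted over 250 bases before the start on both strands in the 9150 tested genes that matched a single promoter. TATAAA stood in 16.1% of 242 promoters of risen genes, in 6.35% of 394 promoters of fallen genes and in 6.7% of all. TGANTCA stood in 9.09% of risen, 3.81% of fallen and 4.37% of all promoters, and the antioxidant core TGACNNNGC, which can overlap it, in 17.4%, 9.64% and 12.2%. The NF-kappaB site stood in 13.2% of risen, 7.87% of fallen and 8.87% of all promoters, and TGATGNAA in 3.72%, 0.508% and 1.89%. For the 26 promoters of genes that rose by at least 1, the full cyclic AMP element stood in 15.4% against 2.63% of all, GCGNGGGCG in 26.9% against 8.69%, and TGANTCA in 0. The serum response CArG box stood in 0.413% of risen, 1.27% of fallen and 1.14% of all promoters, and the heat shock pair GAANNTTC in 5.79%, 5.33% and 5.01%. Promoter GC content was close, with a median of 59.2% in risen, 60.4% in fallen and 60% in all genes, but 65% in the 26. These matches describe letters in a window and no test was made of them.

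The ATF4 branch of the stress response followed. Atf4, the transcription factor that is translated when eIF2α is phosphorylated, had 358, 339 and 352 CPM in siNC+H2O2 libraries, against 232, 222 and 227 CPM in siNC libraries (0.62 ± 0.05, edgeR adjusted p = 7.81e-09). Ppp1r15a, whose product GADD34 removes that phosphate, had 71.2, 70.2 and 76.8 CPM in siNC+H2O2 libraries, against 38.3, 37.6 and 39.2 CPM in siNC libraries (0.92 ± 0.07). Ddit3, which encodes CHOP, had 25.5, 21 and 25 CPM in siNC+H2O2 libraries, against 16.4, 13.5 and 16.4 CPM in siNC libraries (0.63 ± 0.13, edgeR adjusted p = 0.0048). In each the groups stood apart. Trib3, an inhibitor of ATF4, rose by 0.60 ± 0.12 and Asns, asparagine synthetase, by 0.37 ± 0.06. In the list 9 of 23 members rose and 0 fell, with a median of 0.275, and 5 of the 9 passed under every alternative but the minimum fold. The endoplasmic reticulum chaperone Hspa5 rose by 0.27 ± 0.05, 1 of 4 risen and 1 fallen among 22 genes of the unfolded protein response. The 4 became 1 without replicate 2 of siNC+H2O2 and 2 without replicate 1 or 3 of siNC+H2O2 or replicate 2 or 3 of siNC, and the fallen 1 became 0 without replicate 1 or 3 of siNC+H2O2 or replicate 3 of siNC.

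Cytosolic heat shock genes rose in part. Dnajb1, an HSP40 cochaperone and a classical target of HSF1, had 75.2, 75.5 and 77.5 CPM in siNC+H2O2 libraries, against 38, 37.5 and 36.7 CPM in siNC libraries (1.02 ± 0.06, edgeR adjusted p = 6.18e-12). Hspa1a, the inducible HSP70, had 19.7, 20.2 and 21.7 CPM in siNC+H2O2 libraries, against 10.9, 9.09 and 11.2 CPM in siNC libraries (0.98 ± 0.09), and Hspa1b rose by 0.58 ± 0.10. The 2 HSP70 genes are near-identical, so the division of reads between them is uncertain. Hspb1, a small heat shock protein with near-identical copies, rose by 0.45 ± 0.07. In the list 6 of 22 rose and 0 fell, while the abundant constitutive Hspa8 (0.12 ± 0.06, edgeR adjusted p = 0.309) and Hsp90aa1 (0.06 ± 0.12, edgeR adjusted p = 0.819) did not pass.

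The enzymes that remove peroxide changed by small amounts. Prdx1 (ENSMUSG00000028691, GRCm38 chromosome 4, 116685544 to 116700822, plus strand), the peroxiredoxin that the study targets, had 1690, 1648 and 1558 CPM in siNC+H2O2 libraries, against 1345, 1358 and 1279 CPM in siNC libraries (0.30 ± 0.06, edgeR adjusted p = 0.00403), and near-identical copies make its level uncertain. Srxn1, the sulfiredoxin that restores overoxidised peroxiredoxins, had 235, 224 and 228 CPM in siNC+H2O2 libraries, against 182, 180.1 and 178 CPM in siNC libraries (0.35 ± 0.05, edgeR adjusted p = 3.62e-05). Prdx6 rose by 0.25 ± 0.05, and 4 of 18 peroxiredoxins, thioredoxins and glutaredoxins rose in all, with 0 fallen. Rises of other NRF2 targets were small too. Hmox1, heme oxygenase 1, had 844, 844 and 866 CPM in siNC+H2O2 libraries, against 719, 709 and 721 CPM in siNC libraries (0.25 ± 0.05, edgeR adjusted p = 0.0035), and Nqo1, a quinone reductase, rose by 0.41 ± 0.08. Groups did not overlap in either. Further NRF2 targets did not pass, as Txnrd1 gave 0.12 ± 0.04 (edgeR adjusted p = 0.0891), Gclm 0.17 ± 0.07 (edgeR adjusted p = 0.169), and Slc7a11 0.11 ± 0.12 (edgeR adjusted p = 0.661). Nfe2l2, which encodes NRF2, gave 0.11 ± 0.05 and its inhibitor Keap1 0.07 ± 0.07, neither past the test. Catalase (Cat, 0.09 ± 0.04), Gpx1 (0.18 ± 0.09) and Sod1 (0.16 ± 0.06) did not pass either. Sod2, the mitochondrial superoxide dismutase, was the 1 of 4 in its list that passed (0.21 ± 0.06, edgeR adjusted p = 0.0434), and it did not pass without any 1 of the siNC+H2O2 libraries or siNC replicates 1 or 2. Of 24 glutathione genes 1 rose, which became 4 with the replicate block, 2 without replicate 1 of siNC, and 0 without replicate 1 or 3 of siNC+H2O2 or replicate 2 or 3 of siNC. Among ferroptosis regulators, Gch1, which makes the antioxidant cofactor tetrahydrobiopterin, rose by 0.51 ± 0.09, and Sat1, which acetylates polyamines, by 0.43 ± 0.05, as the 2 risen of 14. Metallothioneins gave 0 of 5 past the test in edgeR and DESeq2, and 0 at an unadjusted edgeR p below 0.05, with 1 higher in the block on the 6 libraries.

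Chemokines and cytokines rose with 9 of 22 and 3 of 17 members, and none fell. Cxcl1, a neutrophil attractant, had 7.31, 8.51 and 7.08 CPM in siNC+H2O2 libraries, against 2.6, 3.8 and 3.25 CPM in siNC libraries (1.24 ± 0.13, edgeR adjusted p = 1.22e-06). Ccl3, a monocyte attractant, had 44.9, 49.4 and 43.1 CPM in siNC+H2O2 libraries, against 28.9, 28.7 and 27.3 CPM in siNC libraries (0.69 ± 0.07), and its neighbour Ccl4 rose by 0.83 ± 0.10. These were modest changes at low to middling levels. Cxcl2 rose by 0.84 ± 0.10, Cxcl10, an interferon-induced chemokine, by 0.95 ± 0.14, and Ccl7 by 0.51 ± 0.09. Tnf, the cytokine upstream of NF-kappaB, had 21.1, 20.7 and 18.8 CPM in siNC+H2O2 libraries, against 11.9, 10.8 and 10.8 CPM in siNC libraries (0.85 ± 0.08, edgeR adjusted p = 3.48e-07), and Osm, oncostatin M, rose by 0.96 ± 0.17. Il6 did not pass (0.70 ± 0.33, edgeR adjusted p = 0.214). Il1b was too low to be tested, with 0 counts in the siNC+H2O2 libraries and at most 0.274 CPM in the siNC libraries. Nfkbiz, an atypical IkappaB protein, rose by 0.83 ± 0.09, 1 of 3 risen and 1 fallen among 17 NF-kappaB genes, where the 3 became 1 without replicate 2 of siNC and the fallen 1 became 0 without replicate 1 or 2 of siNC+H2O2 or any 1 of the siNC libraries. Of 17 macrophage markers 2 rose and 0 fell, with a median of 0.146. The 2 became 4 with the replicate block, and 1 without replicate 1 of siNC+H2O2 or replicate 2 or 3 of siNC. In siprdx1 cultures 0 of the 17 rose with H2O2 (median 0.03), as did 4 of the 22 chemokines (median 0.06). The summed level of the macrophage markers, most of it Lyz2, did not overlap between siNC+H2O2 and siNC libraries. In all, 8 of the 17 were higher in every siNC+H2O2 library than in every siNC library. Cd14, a coreceptor for lipopolysaccharide, rose by 0.46 ± 0.06. Lyz2 (0.21) passed too, but not without replicate 1 of siNC+H2O2 (0.17), siNC replicate 2 (0.17) or siNC replicate 3 (0.19). The part that macrophages have in the chemokine and cytokine values was not tested. Of 10 markers of T, B and mast cells 9 were near 0, with means of at most 0.096 CPM in siNC+H2O2 and 0.133 CPM in siNC libraries. The remaining one, Kit, which is also a germ cell marker, had 120.3, 115 and 116 CPM in siNC+H2O2 libraries, against 119, 117 and 122.6 CPM in siNC libraries. Markers of erythrocytes were at or near 0, with 0 of 7 expressed enough to be tested. Interferon-stimulated genes split, with 5 of 30 risen, among them Usp18 (0.55 ± 0.10) and Ifit3 (0.43 ± 0.08, which has a near-identical copy), and 2 fallen, led by Oas2 (-0.73 ± 0.09). The 5 became 3 without any 1 of the siNC+H2O2 libraries or siNC replicates 2 or 3, and the 2 became 1 without replicate 1 or 2 of siNC+H2O2 or replicate 3 of siNC.

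**Figure D3:**
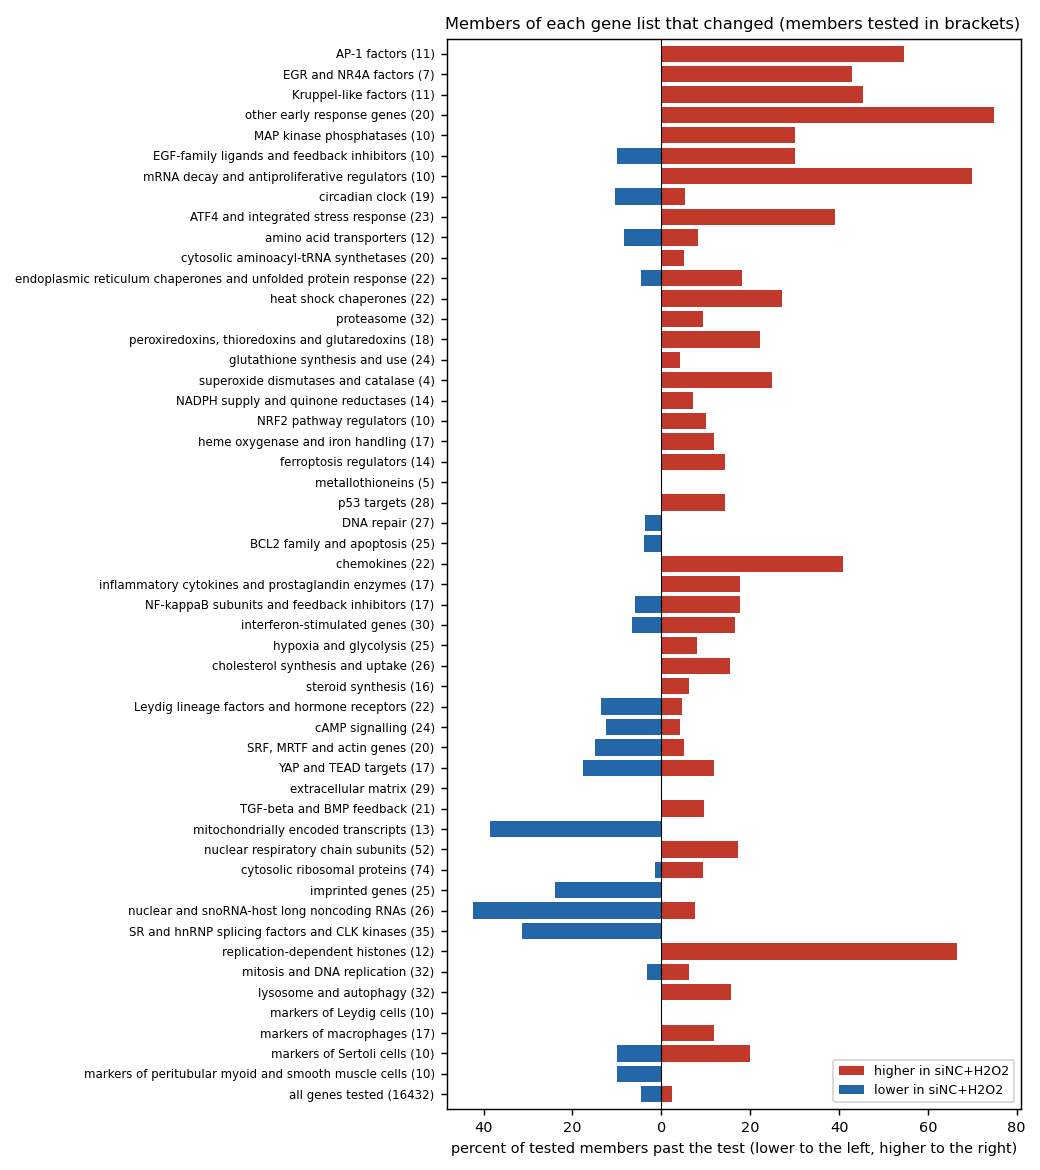
For each gene list the bar gives the percentage of its tested members (number in brackets) that rose in siNC+H2O2 (red, to the right) or fell (blue, to the left), with all genes tested at the bottom. Early response genes (15 of 20), mRNA decay regulators (7 of 10) and histones (8 of 12) reach farthest to the right, and long noncoding RNAs (11 of 26), mitochondrially encoded transcripts (5 of 13) and splicing factors (11 of 35) farthest to the left.

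Nuclear long noncoding RNAs fell. Malat1 (ENSMUSG00000092341, GRCm38 chromosome 19, 5795690 to 5802672, minus strand), an abundant RNA of nuclear speckles, had 712, 779.7 and 792 CPM in siNC+H2O2 libraries, against 1241, 1526 and 1525 CPM in siNC libraries (-0.91 ± 0.11, edgeR adjusted p = 1.67e-05). Neat1 (ENSMUSG00000092274, GRCm38 chromosome 19, 5824708 to 5845478, minus strand), the scaffold of paraspeckles, had 332, 359 and 364 CPM in siNC+H2O2 libraries, against 726, 715 and 749.5 CPM in siNC libraries (-1.05 ± 0.06, edgeR adjusted p = 1.01e-11). Both were at about the 2-fold mark, with a lower level in every siNC+H2O2 library. Of 26 listed nuclear and snoRNA-host RNAs 11 fell and 2 rose, with a median of -0.34. Firre fell by 0.78, Snhg11 by 0.93, Snhg20 by 0.62 and Snhg17 by 0.44 on the log2 scale, while Snhg8 rose by 0.50 with all libraries and gave 0.39 with an edgeR adjusted p of 0.0562 without replicate 3 of siNC+H2O2. All long noncoding RNAs together took 0.659 ± 0.00945% of counts in siNC+H2O2 libraries and 0.846 ± 0.0285% in siNC libraries (SD, n = 3 each). The difference of -0.188 percentage points had p = 0.1 in an exact two-sided permutation test, the smallest that 3 against 3 allows.

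A few imprinted transcripts fell, 6 of 25 with 0 risen and a median of -0.037 over the list, led by noncoding members. Kcnq1ot1 (ENSMUSG00000101609, GRCm38 chromosome 7, 143203458 to 143296549, minus strand), the antisense RNA that silences its cluster on the paternal allele, had 3.88, 4.92 and 3.5 CPM in siNC+H2O2 libraries, against 11.9, 16.5 and 13 CPM in siNC libraries (-1.76 ± 0.15, edgeR adjusted p = 3.20e-08). Meg3 (ENSMUSG00000021268, GRCm38 chromosome 12, 109541001 to 109571726, plus strand), a maternally expressed long noncoding RNA, had 69.3, 74.5 and 78.5 CPM in siNC+H2O2 libraries, against 177, 190 and 191 CPM in siNC libraries (-1.33 ± 0.06, edgeR adjusted p = 6.63e-13). Airn, the antisense RNA of the Igf2r locus, had 12.1, 12.4 and 12 CPM in siNC+H2O2 libraries, against 20.9, 23.2 and 25.1 CPM in siNC libraries (-0.92 ± 0.09). The 3 belong to separate imprinted clusters on chromosomes 7, 12 and 17. Peg3, a paternally expressed zinc finger gene, fell by 0.50 on the log2 scale. H19 gave 0.74 ± 0.38 (edgeR adjusted p = 0.263). Kcnq1ot1 and Airn lie antisense to other genes, and since no source used here states how strand was handled in counting, reads of their partners cannot be told apart from theirs. Other large falls were those of Mir5125 (-1.44 ± 0.23), a miRNA gene, Spaca6 (-1.36 ± 0.07), a sperm membrane gene, the homeobox gene Hoxc5 (-1.29 ± 0.19), Col20a1 (-1.29 ± 0.23), Sec31b (-1.18 ± 0.25) and Cd46 (-1.16 ± 0.22). Spaca6 stood out by level, with 19.3, 18.9 and 18.4 CPM in siNC+H2O2 libraries, against 47.3, 48.3 and 49.3 CPM in siNC libraries, whereas the other 5 lay below 7 CPM in all 6 libraries.

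Splicing genes fell together with the speckle RNA Malat1. Pnisr, an SR-related protein, had 95.6, 99.7 and 98.1 CPM in siNC+H2O2 libraries, against 159, 189.6 and 159.9 CPM in siNC libraries (-0.79 ± 0.07, edgeR adjusted p = 2.04e-08). Srsf11 had 147, 155 and 141 CPM in siNC+H2O2 libraries, against 204, 232 and 214 CPM in siNC libraries (-0.55 ± 0.08), and Srsf5 fell by 0.35, Luc7l3, a U1 snRNP-associated factor, by 0.54, Rbm5 by 0.39, Srrm2 by 0.37 and Son by 0.28 on the log2 scale. The last 2 encode core proteins of nuclear speckles. Of 35 SR and hnRNP factors and CLK kinases 11 fell and 0 rose, and 7 of the 11 passed under every alternative but the minimum fold. Srsf1 (-0.12, edgeR adjusted p = 0.453) and Hnrnpa1 (-0.16, edgeR adjusted p = 0.335) did not pass.

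Of 13 mitochondrially encoded protein-coding transcripts 5 fell and 0 rose, with a median of -0.28, and of the nuclear subunits of the same complexes 0 fell. mt-Nd5, a subunit of complex I, had 1100, 1074 and 1052 CPM in siNC+H2O2 libraries, against 1474, 1571 and 1561 CPM in siNC libraries (-0.51 ± 0.08, edgeR adjusted p = 0.000403). It was the 1 of the 5 that passed under every alternative but the minimum fold. The 5 became 2 without replicate 2 or 3 of siNC+H2O2 or replicate 3 of siNC, and 3 without replicate 2 of siNC. All genes on the mitochondrial chromosome, a larger set than the 13, took 1.18 ± 0.0493% of counts in siNC+H2O2 libraries and 1.38 ± 0.0221% in siNC libraries (SD, n = 3 each). The difference of -0.202 percentage points had p = 0.1 in the exact two-sided permutation test. Of 52 nuclear respiratory chain subunits 9 rose and 0 fell, but the 9 became 2 without replicate 3 of siNC+H2O2 or replicate 2 of siNC, 3 without replicate 1 of siNC+H2O2 and 4 without replicate 3 of siNC, and none of the 9 held under every alternative.

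Listed histone genes were higher in the poly(A) RNA, with 8 of 12 risen and 0 fallen. The list was drawn up for replication-dependent histones, but 1 of the 8 was H1f0, a replication-independent linker histone. H1f0 gave 0.17 (edgeR adjusted p = 0.0279) and did not pass without replicate 1 or 3 of siNC+H2O2 or replicate 1 or 2 of siNC. The linker histone H1f2 had 116, 112 and 120.5 CPM in siNC+H2O2 libraries, against 92, 87.6 and 92.1 CPM in siNC libraries (0.36 ± 0.05). H4f16 had 2.19, 1.64 and 3.32 CPM in siNC+H2O2 libraries, against 0.0456, 0.262 and 0.169 CPM in siNC libraries (3.86 ± 0.44), H2bc6 rose by 1.26 ± 0.19 and H1f4 by 1.97 ± 0.40. These last 3 have near-identical copies, so their reads are uncertain, and H4f16 and H1f4 lay below 4 CPM. The 8 became 4 without replicate 1 of siNC+H2O2 and 5 without replicate 2 or 3 of siNC+H2O2 or replicate 1 or 2 of siNC.

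Length moved with the response. The risen genes had a median longest transcript of 2161 bp, a median span of 6799 bp and 4 exons, and the fallen ones 4700 bp, 35770 bp and 12 exons, with 3055 bp, 18952 bp and 7 exons over all genes tested. When genes were split into 5 equal bins by transcript length, in the longest bin 10.8% fell and 0.488% rose (median -0.098), and in the shortest bin 1.58% fell and 3.72% rose (median 0.121). The length term can be read in each library as the median log2 ratio to the mean of the 6 (pseudocount 0.5 CPM) in the longest bin minus that in the shortest. It was -0.093, -0.037 and -0.16 in siNC+H2O2 libraries and 0.018, 0.193 and 0.064 in siNC libraries, with no overlap between the groups and siNC replicate 2 highest. GC content did not separate the groups in the same way, with 0.01, -0.077 and 0.141 in siNC+H2O2 libraries and 0.082, -0.192 and 0.041 in siNC libraries. With offsets for both, counts of falls stayed close, at 10 of 26 long noncoding RNAs, 12 of 35 splicing genes, 5 of 25 imprinted genes and 4 of 13 mitochondrial transcripts. Counts of rises were 8 of 11 AP-1 factors, 17 of 20 early genes, 13 of 23 ATF4 genes, 9 of 22 chemokines and 7 of 22 heat shock genes. These stand against a shifted background, since rises over all 16432 genes tested went from 387 to 1060 with the offsets. Falls over all genes went from 755 to 766. Splicing genes also gave 5 rises with the offsets. Whether library preparation or the cells set the length term was not tested.

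**Figure D4:**
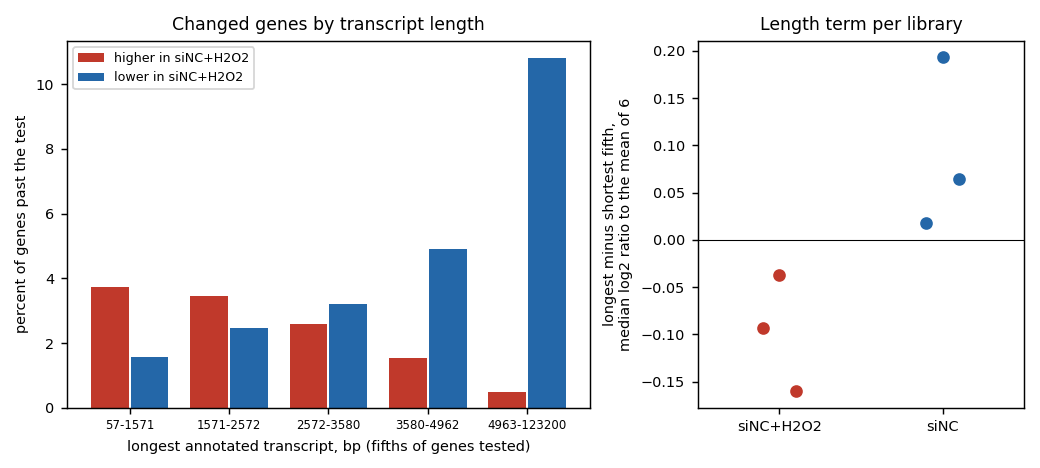
Left, the percentage of genes past the test (y axis) in 5 bins of the longest annotated transcript in bp (x axis), for genes higher (red) and lower (blue) in siNC+H2O2; right, the length term of each library. Falls reach 10.8% in the longest bin, and the 3 siNC+H2O2 libraries lie below 0 and the 3 siNC libraries above 0.

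Metabolic and lineage genes of Leydig cells gave counts that varied with the fit. In cholesterol synthesis and uptake 4 of 26 rose and 0 fell, led by Insig1 (0.46 ± 0.06), which retains SREBP in the endoplasmic reticulum, with 304, 294 and 303 CPM in siNC+H2O2 libraries, against 227, 213 and 216 CPM in siNC libraries. The 4 became 2 without replicate 1 or 3 of siNC+H2O2 or replicate 2 or 3 of siNC, and 11 with GC and length offsets or with the block on the 6 libraries. In steroid synthesis 1 of 16 rose (2 without replicate 1 of siNC, and 0 without replicate 1 or 3 of siNC+H2O2 or replicate 2 or 3 of siNC) and 0 fell, and Hsd3b1 gave 0.16 ± 0.05 (edgeR adjusted p = 0.0761). Insl3, a Leydig hormone, varied more between replicates than between groups, with 28.9, 66 and 63.5 CPM in siNC+H2O2 libraries, against 25.6, 47.2 and 50.8 CPM in siNC libraries (0.36 ± 0.50, edgeR adjusted p = 0.733). Of 22 lineage factors and hormone receptors Nr4a1 rose and 3 fell, while Nr5a1, which encodes SF-1, gave -0.04 ± 0.07 (edgeR adjusted p = 0.81), and 0.0048 without replicate 1 of siNC. The 3 became 1 without replicate 2 or 3 of siNC+H2O2 or replicate 2 of siNC. Lmod1, a smooth muscle actin nucleator, fell by 0.50 on the log2 scale and Mylk, myosin light chain kinase, by 0.26, while Tagln2, of the same actin list as Mylk, rose by 0.24 ± 0.05 (0.20 and not past the test without replicate 3 of siNC+H2O2 or replicate 2 of siNC). Of 10 Sertoli markers 2 rose (1 without any 1 of the siNC+H2O2 libraries or siNC replicates 2 or 3) and 1 fell (0 without replicate 2 or 3 of siNC+H2O2 or replicate 2 of siNC). Sox9, a Sertoli factor, rose by 0.40 ± 0.09, and Wt1 was the fallen one (-0.37 ± 0.10). None of 29 extracellular matrix genes passed in edgeR with no offsets or block, where 1 was higher and 2 lower at an unadjusted p below 0.05, and DESeq2 called 1 lower. With GC and length offsets 8 were higher, and with the block on the 6 libraries 5 were higher and 2 lower. Of 11 fibroblast markers and 7 endothelial markers 0 passed in edgeR or DESeq2, with 1 fibroblast marker lower at an unadjusted edgeR p below 0.05. With offsets 4 of the 11 fibroblast markers were higher, and with the block on the 6 libraries 2 were higher and 1 lower.

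The same exposure in siprdx1 cultures gave a comparison in other libraries, since the 2 pairs of groups share none. Both effects came from the same fit, with a shared filter, scaling and estimate of each gene's spread. The calls in the 2 arms are therefore not independent. There 407 genes rose (2.48%) and 886 fell (5.39%), with 217 rises without siprdx1+H2O2 replicate 3 and 242 without siprdx1 replicates 1 or 3. Of the 387 that rose in siNC, 364 had the same sign in siprdx1 and 131 also rose there, which is 33.9% of the siNC rises and 32.2% of the siprdx1 rises. Of the 755 that fell in siNC, 733 had the same sign and 451 also fell, which is 59.7% of the siNC falls and 50.9% of the siprdx1 falls. The same-sign share over all genes tested was not counted, so the same-sign counts have no background to be read against. Across all genes tested the 2 effects had a Pearson r of 0.524, a description across genes, which are not independent. The risen genes had a median of 0.327 in siNC and 0.179 in siprdx1, and the fallen genes -0.385 in siNC and -0.351 in siprdx1. These genes were picked by their test in siNC, which favours larger values there, so the medians cannot compare the size of the effect between the arms. In a test of the difference itself 40 genes passed (0.243%), 33 with the higher effect in siNC (0.201%) and 7 with the lower (0.0426%). Of the 33, 22 had risen in siNC and rose more there. The 40 became 26 without replicate 2 of siNC+H2O2, and DESeq2 called 69.

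Early genes led the genes with a larger rise in siNC. Arc changed by 5.13 ± 0.12 in siNC and 3.38 ± 0.14 in siprdx1, and Ppp1r10, a nuclear phosphatase subunit with a near-identical copy, by 1.59 ± 0.07 in siNC and 0.70 ± 0.07 in siprdx1. Fos changed by 3.72 ± 0.07 in siNC and 2.57 ± 0.07 in siprdx1, and Btg2 by 2.74 ± 0.04 in siNC and 1.83 ± 0.04 in siprdx1 (edgeR adjusted p of the difference 1.33e-08). Nr4a1 changed by 1.11 ± 0.08 in siNC and 0.11 ± 0.08 in siprdx1, and Dnajb1 by 1.02 ± 0.06 in siNC and 0.31 ± 0.06 in siprdx1. The rise was thus present in siprdx1 for Fos, Btg2 and Dnajb1 and did not pass there for Nr4a1. The long noncoding and imprinted falls were present in both arms, with Meg3 at -1.33 in siNC and -1.55 in siprdx1 and Neat1 at -1.05 in siNC and -1.14 in siprdx1, and neither difference passed (edgeR adjusted p = 0.649 for Meg3 and 0.997 for Neat1). Some splicing genes fell less in siNC, as Luc7l3 changed by -0.54 ± 0.07 in siNC and -1.07 ± 0.07 in siprdx1 and Srsf5 by -0.35 ± 0.06 in siNC and -0.81 ± 0.06 in siprdx1.

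**Figure D5:**
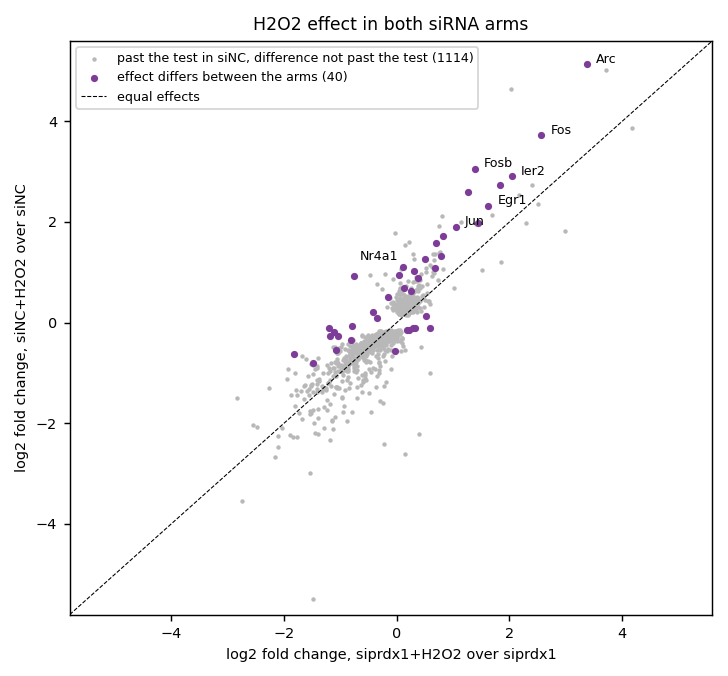
Each point is a gene past the test in siNC or with effects that differ between the arms, by its log2 fold change for H2O2 in siprdx1 (x axis) and in siNC (y axis), with purple marking the 40 genes whose effects differ and the dashed line equal effects. Fos, at 3.72 in siNC and 2.57 in siprdx1, and the other labelled early genes lie above the line.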

How the data were processed

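Per the labels' protocols, libraries were made with the TruSeq Stranded mRNA kit and sequenced as 150 bp paired ends. Read counts per gene were deposited by the authors for 18 libraries. HISAT2, HTSeq and mm10 are named in the submitters' processing notes, and the annotation and strand setting are not given in the sources used here. Groups came from the treatment labels, and names, lengths and coordinates from GENCODE M21 (GRCm38), which held 55227 of 55487 IDs.

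The counts were filtered (filterByExpr), scaled by TMM and fitted with edgeR 4.0.16 in R 4.3.3 (glmQLFit, robust) as 6 group means, with 12 residual degrees of freedom and a common biological coefficient of variation of 7.01%. Adjusted p is Benjamini-Hochberg over the 16432 genes tested. SE is the size of the log2 fold change divided by the root of F. The code was tested on simulated data. Copies were searched with blastn at 90% identity or more between the longest transcripts of genes, with their positions not checked. Shares of counts were compared with an exact two-sided permutation test. Alternatives were other scaling, filters and tools (DESeq2 1.42.0, limma 3.58.1), offsets for GC content and length, the replicate block, a minimum fold and leaving out each library.

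Same-numbered siNC+H2O2 and siNC libraries deviated together from their group means (r = 0.135, 0.135 and 0.118), which is where the pairing by number comes from, since the labels do not state it. Named genes are the 12 largest rises and falls among genes that passed, with a mean of at least 1 CPM and groups without overlap. Symbols that are clone names were left out of these. Named genes also include members of the gene lists, 15 genes of oxidative stress and steroid synthesis, and those with the clearest difference between the siRNA arms. The members and lists were chosen with earlier results of these data known. Some genes that the rule would name are not reported here.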

Additional observations from a re-analysis of the deposited data

Results flagged for a closer look

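For 27 of the genes named by rule or list, the H2O2 effect in siNC minus that in siprdx1 passed the test of the difference (edgeR adjusted p below 0.05 over all genes tested), and these values are log2 differences. Among early response and feedback genes, the effect was larger in siNC by 1.75 for Arc, 1.66 for Fosb, 1.33 for Rgs1, 1.15 for Fos, 0.996 for Nr4a1, 0.906 for Btg2, 0.887 for Plk2, 0.868 for Ier2, 0.85 for Jun, 0.755 for Atf3, 0.692 for Egr1, 0.532 for Zfp36, 0.529 for Dusp1 and 0.417 for Ier5. Ppp1r10 differed by 0.89 and the cochaperone Dnajb1 by 0.716. Among chemokines, Cxcl10 differed by 0.913, Ccl7 by 0.669 and Ccl3 by 0.573, and in siprdx1 none of these 3 passed. Without H2O2, Cxcl10 stood at 7.65, 7.24 and 7.32 CPM in siprdx1, against 2.92, 3.89 and 3.42 CPM in siNC libraries. With H2O2 it had 7.68, 7.06 and 8.11 CPM in siprdx1+H2O2 and 6.86, 6.5 and 6.515 CPM in siNC+H2O2 libraries. Ccl7 began at 50.4 to 64.9 CPM in siprdx1 and 44.3 to 49.1 CPM in siNC. Ccl3 began alike, at 27 to 29.4 CPM in siprdx1 and 27.3 to 28.9 CPM in siNC. With H2O2 Ccl3 had 30.35 to 31.2 CPM in siprdx1+H2O2 and 43.1 to 49.4 CPM in siNC+H2O2.

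Splicing genes had the positive sign because they fell more in siprdx1, by 0.787 for the kinase Clk1, 0.531 for Luc7l3 and 0.459 for Srsf5. The sign was negative for 5 genes of stroma and metabolism whose effects lay between -0.15 and 0.14 in siNC and which rose in siprdx1. These were the follistatin gene Fst with -0.693, the ferritin receptor Scara5 with -0.432, Thbs2 with -0.389, Sparcl1 with -0.354 and Abat with -0.326.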

How the results depend on the processing

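The number of risen genes stayed within 1.5 times 387 under other size factors, no low-count filter, DESeq2, limma voom, a fit of the 6 libraries alone and the replicate block (315 to 530), and that of fallen genes likewise (657 to 875). The replicate block with the 6 libraries alone gave 1560 higher and 1758 lower genes, offsets for GC content and length 1060 higher, and both offsets and the block 1312 higher. Testing against a minimum fold of 1 on the log2 scale left 16 higher and 4 lower genes. Leaving out 1 library gave 194 to 423 higher and 437 to 732 lower genes, and leaving out replicate 2 of both groups, which was chosen after seeing the data, 136 and 313. For siprdx1, leaving out 1 library gave 217 to 415 higher genes, and for the difference between the arms 26 to 54 genes, against 69 by DESeq2. Among the lists described, counts under the block in all 18 libraries are printed where they moved by over 1.5 times. In the block on the 6 libraries alone, 1560 of all 15540 genes tested were higher and 1758 lower. List sizes below are members tested with all 18 libraries. The block on the 6 libraries alone moved list counts further, to 12 of 18 for peroxiredoxins and their kin, 16 of 23 for ATF4 genes, 11 of 22 for heat shock genes, 8 of 17 for cytokines, 33 of 52 for respiratory chain subunits, 50 of 74 for ribosomal proteins, 22 of 32 for the proteasome, 12 of 17 for macrophage markers and 19 falls of 35 for splicing genes. The sign of Rian, an imprinted RNA, turned to 0.00745 with GC and length offsets and 0.00765 with the block added. Without 1 library, Star ranged from -0.032 to 0.0514 and Nr5a1 from -0.123 to 0.00483. The cause was not tested. With 3 libraries a group, small changes of low genes were not detectable at this depth.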

Other observations

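Several gene groups not described above passed in part, and their counts changed when single libraries were left out. Of 74 cytosolic ribosomal protein genes 7 rose and 1 fell. The risen count was 25 without replicate 1 of siNC, 22 with the replicate block, 4 without replicate 3 of siNC+H2O2 or replicate 3 of siNC, 3 without replicate 2 of siNC and 2 without replicate 1 of siNC+H2O2. Rpl19 (0.27) passed under every alternative but the minimum fold, but it has 18 near-identical copies that cover up to 93.3% of its length, so its reads are uncertain. Ribosomal protein genes took 2.17 ± 0.113% of counts in siNC+H2O2 libraries and 1.9 ± 0.19% in siNC libraries (SD, n = 3 each, exact two-sided permutation p = 0.2). Of 32 proteasome genes 3 rose, with 6 without replicate 1 of siNC, 5 with the block, 1 without replicate 1 or 3 of siNC+H2O2 and 0 without replicate 2 of siNC. Of 32 lysosome and autophagy genes 5 rose, with 8 with the block, 2 without replicate 2 of siNC+H2O2, 1 without replicate 3 of siNC and 0 without replicate 1 or 3 of siNC+H2O2 or replicate 2 of siNC. Macrophages are rich in lysosomes, and their marker sum was higher in siNC+H2O2, as given above, and their part in this count was not tested. Of 25 genes of hypoxia and glycolysis 2 rose, with 4 with the block, 1 without replicate 3 of siNC+H2O2 or replicate 3 of siNC and 0 without replicate 1 of siNC+H2O2 or replicate 2 of siNC.

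Per3, a repressor of the circadian clock, fell by 0.49 on the log2 scale, with 31.1, 29.9 and 32.3 CPM in siNC+H2O2 libraries, against 43.9, 43.5 and 43.8 CPM in siNC libraries. Core clock genes otherwise gave few calls, with 1 risen and 2 fallen of 19, which became 0 and 1 without replicate 1 or 2 of siNC+H2O2 or replicate 2 of siNC, and 1 and 1 without replicate 3 of siNC+H2O2. Ptpn14, which restrains YAP, fell by 0.35, with 37.2, 39.4 and 40.7 CPM in siNC+H2O2 libraries, against 49, 48.6 and 52 CPM in siNC libraries. The class of entries annotated as TEC (lacking experimental support) made up 7.82% of the fallen genes, 0.517% of the risen genes and 2.08% of all genes tested, and long noncoding RNAs 13.9%, 4.91% and 7.66%.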
